A study of Caenorhabditis elegans with 5 samples.

Results

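Caenorhabditis elegans hermaphrodites with a germline tumour were sequenced after 48 h without food and set against animals with the same tumour taken from food on day 3 of adulthood. The comparison uses 2 of the 5 libraries of the series. It takes every gene whose authors' normalized read values in the 2 libraries average at least 50, which is 9100 of the 45461 gene identifiers in the deposited tables. For each gene the log2 fold is that of the fasted value plus 1 over the day 3 value plus 1, so that a positive fold means more reads in the fasted library. The gene F42C5.3 lies just inside the limit with a mean of 50.02 normalized reads and a log2 fold of -0.83, and ilkp-1 lies just outside with a mean of 49.98 and a log2 fold of 0.58.

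Both groups were made with gld-1 RNAi, given as bacteria that carry double-stranded RNA against the gene, and both were grown at 20 °C. The fasted animals left the RNAi plates on day 2 of adulthood for plates with no bacteria, stayed there for 48 h and are labelled day 4. The day 3 animals stayed on gld-1 RNAi bacteria. Loss of food, a day of age, the time on RNAi bacteria and the pool of animals therefore differ together in this comparison and cannot be told apart. Each group is 1 library of RNA from whole animals, about 3000 in number and gathered over 2 experiments, so there is no replicate and no test over samples. The labels disagree on when RNAi began, since the growth protocol puts first-stage larvae on RNAi plates and the description of the day 3 sample moves adults there after their first day. A further library is used beside these, from gld-1 RNAi animals that moved on day 2 to bacteria with the empty vector L4440 and are labelled day 4 (fed). Control animals of day 3 and young adults of day 1, both on L4440, complete the series. Folds of fasted over day 3 and of fed over day 3 rest on the same day 3 library, so they are only set side by side.

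GLD-1 is an RNA-binding protein that holds germ cells in meiosis, and without it they go back to dividing and fill the gonad with a tumour. The worm has no fat tissue of its own, and its intestine is the organ that digests bacteria, stores fat, makes yolk and secretes antimicrobial proteins. In fasted worms fat is released by lysosomal and cytosolic lipases and burnt in mitochondria and peroxisomes, a programme known to be driven by nuclear receptors such as NHR-49 and by the lysosomal regulator HLH-30. Adults without food also lay fewer eggs and draw on lysosomes and autophagy for building blocks.

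The fasted library held 13803289 reads on genes and the day 3 library 27598482, while the fed library held 27469984. Ribosomal RNA took 26.6%, 27.7% and 25.7% of the reads of the fasted, fed and day 3 libraries. The median measured gene had 392 reads in the fasted and 846 reads in the day 3 library. A 95% counting interval reaches 0.60, 0.41 and 0.13 log2 units to either side at 50, 100 and 1000 reads in each library. These intervals cover counting error only, not the difference between pools of animals. Of the measured genes, 353 had under 50 normalized reads in 1 of the 2 libraries, and in 267 of them that library was the fasted one. Such genes passed the limit only through the other library and had to differ.

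The RNAi target gld-1 (T23G11.3) had 1427 normalized reads in the fasted and 1815 in the day 3 library, a log2 fold of -0.35 that counting error alone puts at -0.45 to -0.24. The authors' deposited table gives it an adjusted p of 1. On a scale common to the 5 libraries, gld-1 stood at 1592 in the fasted, 3061 in the fed and 1994 in the day 3 library, against 20340 in the control. All 3 gld-1 RNAi libraries thus had far fewer gld-1 reads than the control, and the fasted one had the fewest. The bacteria of the RNAi plates carry gld-1 sequence of their own, and its part in the day 3 value was not tested.

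Fasting went with a small set of genes far apart and little difference in the rest. The median gene had a log2 fold of 0.01, and 8268 genes (90.9%) lay within 1.5-fold of each other in the 2 libraries. Genes 2-fold or more above day 3 in the fasted library numbered 52, or 0.571% of those measured, and 314, or 3.45%, lay 2-fold or more below. At 1.5-fold there were 158 higher (1.74%) and 674 lower (7.41%). These shares over all measured genes are the background for each count of fasted over day 3 at 1.5-fold below. Between the fed and day 3 libraries, 21 of 9895 measured genes lay 2-fold or more above day 3 in the fed library (0.212%) and 24 below (0.243%), with 146 (1.48%) and 218 (2.20%) at 1.5-fold. The fed pool differs from day 3 in the same day of age and in the move off RNAi bacteria, and keeps food. Those 2-fold or more above held 0.165% of reads outside rRNA in the fasted and 0.0473% in the day 3 library, and those below held 0.852% in the fasted and 2.58% in the day 3 library. With an adjusted p under 0.1, the authors' deposited table calls 18 genes higher (0.0857% of 21002 with a read) and 158 lower (0.752%). That p-value has no replicates behind it and does not measure the spread between pools.

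**Figure D1:**
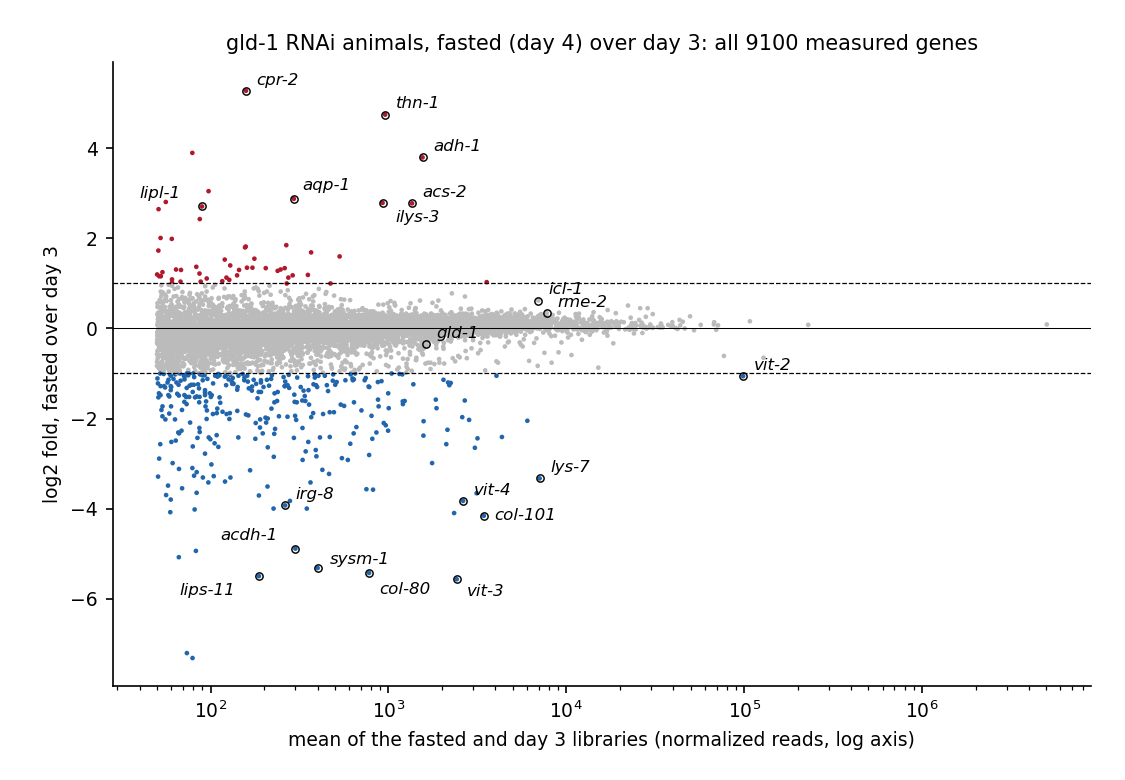
The log2 fold of the fasted over the day 3 library (vertical axis) is plotted against the mean normalized reads of both libraries (log axis) for the 9100 measured genes, with 1 point per gene. Dashed lines mark 2-fold, with 52 genes above (red) and 314 below (blue). The lowest 2 points have 0 reads in the fasted library.

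Genes of fat release and fat burning were among those furthest up, but single members stood apart rather than whole pathways. The acyl-CoA synthetase acs-2, which activates fatty acids for the mitochondria and is a known fasting gene, was 6.85-fold higher in the fasted library. The lysosomal lipase lipl-1 was 6.54-fold higher and the aquaglyceroporin aqp-1, a glycerol channel, 7.34-fold higher. The alcohol dehydrogenase adh-1 was 13.9-fold higher, while the acyl-CoA dehydrogenase acdh-1 was 29.7-fold lower.

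acs-2 (F28F8.2) had 2372 normalized reads in the fasted and 346 in the day 3 library, a log2 fold of 2.78 (2.63 to 2.93, the 95% interval from counting error, given in the same way for other genes). Its adjusted p in the authors' deposited table is 3.29e-13. In the fed over day 3 comparison its log2 fold was 0.22. The carnitine palmitoyltransferase cpt-3 (Y48G9A.10), of the family that carries fatty acids into mitochondria, had 562 normalized reads in the fasted and 174 in the day 3 library, a log2 fold of 1.69 (1.46 to 1.93). Its relatives cpt-1 (0.32), cpt-6 (0.50), cpt-4 (0.30), cpt-5 (0.10) and cpt-2 (-0.01) were under 1.5-fold apart. Of the 27 measured genes of mitochondrial beta oxidation, only acs-2 and cpt-3 were at least 1.5-fold higher and only acdh-1 lower, with a median of 0.03. The enzymes of the oxidation spiral itself stayed near 0, such as the thiolase kat-1 (-0.20), the enoyl-CoA hydratase ech-6 (-0.27) and the hydroxyacyl-CoA dehydrogenase hacd-1 (-0.28).

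lipl-1 (F54F3.3) had 156 normalized reads in the fasted and 23.04 in the day 3 library, a log2 fold of 2.71 (2.19 to 3.37), and the authors' deposited table lists an adjusted p of 0.00577. Its relative lipl-2 (F46B6.8), chosen after its values were seen, had 78.8 normalized reads in the fasted and 23.04 in the day 3 library, a log2 fold of 1.73 (1.13 to 2.44). lipl-3 (R11G11.14) was under the limit of measurement, with 30 reads in the fasted and 5 in the day 3 library, a log2 fold of 3.29 (2.24 to 5.35). These are acid lipases, which cleave stored fat in lysosomes, and each had few reads in the day 3 library. lipl-4 (K04A8.5), another acid lipase, had 24.4 normalized reads in the fasted and 16.06 in the day 3 library, with a counting interval that spans 0 (-0.39 to 1.57). lipl-5 (ZK6.7) was lower, at 1327 normalized reads in the fasted and 2302 in the day 3 library (log2 fold -0.79). fil-1 (T01C3.4), another gene chosen for its role and under the limit, had 4 reads in the fasted and 18 in the day 3 library. Its log2 fold was -1.01, with a counting interval that spans 0 (-3.16 to 0.47). The cytosolic lipases atgl-1 (0.26) and hosl-1 (0.31) were under 1.5-fold apart. Of 7 measured genes of lipolysis, 2 were at least 1.5-fold higher and 1 lower. lipl-1 and lipl-2 had under 50 normalized reads in the day 3 library. They passed the limit only through the fasted library and had to differ, so this count is no evidence on lipolysis.

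adh-1 (K12G11.3) had 2905 normalized reads in the fasted and 207 in the day 3 library, a log2 fold of 3.80 (3.63 to 3.99), and the authors' deposited table lists an adjusted p of 3.41e-25. aqp-1 (F32A5.5) had 519 normalized reads in the fasted and 69.8 in the day 3 library, a log2 fold of 2.88 (2.57 to 3.23). In the fed over day 3 comparison both were slightly below 0, at -0.44 for adh-1 and -0.19 for aqp-1. acdh-1 (C55B7.4), which acts in the breakdown of propionate when vitamin B12 is low, had 18.6 normalized reads in the fasted and 581 in the day 3 library, a log2 fold of -4.89 (-5.88 to -4.18), and 0.08 in fed over day 3. The fasted library had 13 reads of acdh-1 and the day 3 library 833, so acdh-1 passed the limit only through the day 3 library. The other 14 measured genes of propionate and vitamin B12 metabolism lay within 1.5-fold.

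The glyoxylate cycle enzyme icl-1 (C05E4.9), which lets worms build sugar from fat, had 8440.5 normalized reads in the fasted and 5485 in the day 3 library, a log2 fold of 0.62 (0.57 to 0.67). Its adjusted p is 0.698 in the authors' deposited table. The gluconeogenic enzyme pck-1 (W05G11.6) had 2172 normalized reads in the fasted and 1936 in the day 3 library (log2 fold 0.17). None of 17 glycolysis genes was 1.5-fold apart (median -0.01), and of 25 genes of the tricarboxylic acid cycle 1 was lower. In peroxisomes, the acyl-CoA oxidase acox-1.1 (F08A8.1) had 572 normalized reads in the fasted and 325 in the day 3 library, a log2 fold of 0.81, among 17 measured genes of which 2 were higher and 2 lower.

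Genes that build fatty acids were more often lower. Of 15 measured genes of fatty acid synthesis and desaturation, 6 were at least 1.5-fold lower and 1 higher. The median was -0.22, and it moved to -0.57 with a minimum mean of 10, -0.13 with one of 200 and -0.12 with equal upper quartiles, where the libraries are scaled to share the upper quartile of their gene values. acs-1 (F46E10.1), which activates branched-chain fatty acids, had 408 normalized reads in the fasted and 1354 in the day 3 library, a log2 fold of -1.73 (-1.91 to -1.55). The elongases of branched-chain fatty acids elo-5 (-0.76) and elo-6 (-1.02), and the elongase elo-2 (-0.94), were also lower. The delta-9 desaturase fat-6 (VZK822L.1) had 1783 normalized reads in the fasted and 2815 in the day 3 library (log2 fold -0.66). Its near-identical relative fat-7 is listed at 0 in all 5 libraries, so reads of the pair may have been split or lost and the value of fat-6 is uncertain. The desaturase fat-5 had a log2 fold of -0.58. The delta-6 desaturase fat-3 (W08D2.4) was higher instead, with 3348 normalized reads in the fasted and 2040.4 in the day 3 library (log2 fold 0.71).

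Carriers of fatty acids differed in both directions. far-3 (F15B9.1), a secreted fatty acid and retinol binding protein, had 610.3 normalized reads in the fasted and 2544 in the day 3 library, a log2 fold of -2.06 (-2.21 to -1.91). far-7, chosen after its values were seen, had 148 normalized reads in the fasted and 26.5 in the day 3 library, a log2 fold of 2.43 (1.93 to 3.05). far-2 (-0.87) and the lipid-binding lbp-2 (-0.76) were lower. Of 14 measured binding proteins, 4 were at least 1.5-fold lower and 1 higher. The higher one, far-7, passed the limit only through the fasted library. With a minimum mean of 200, 3 of 10 were lower and 0 higher.

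**Figure D2:**
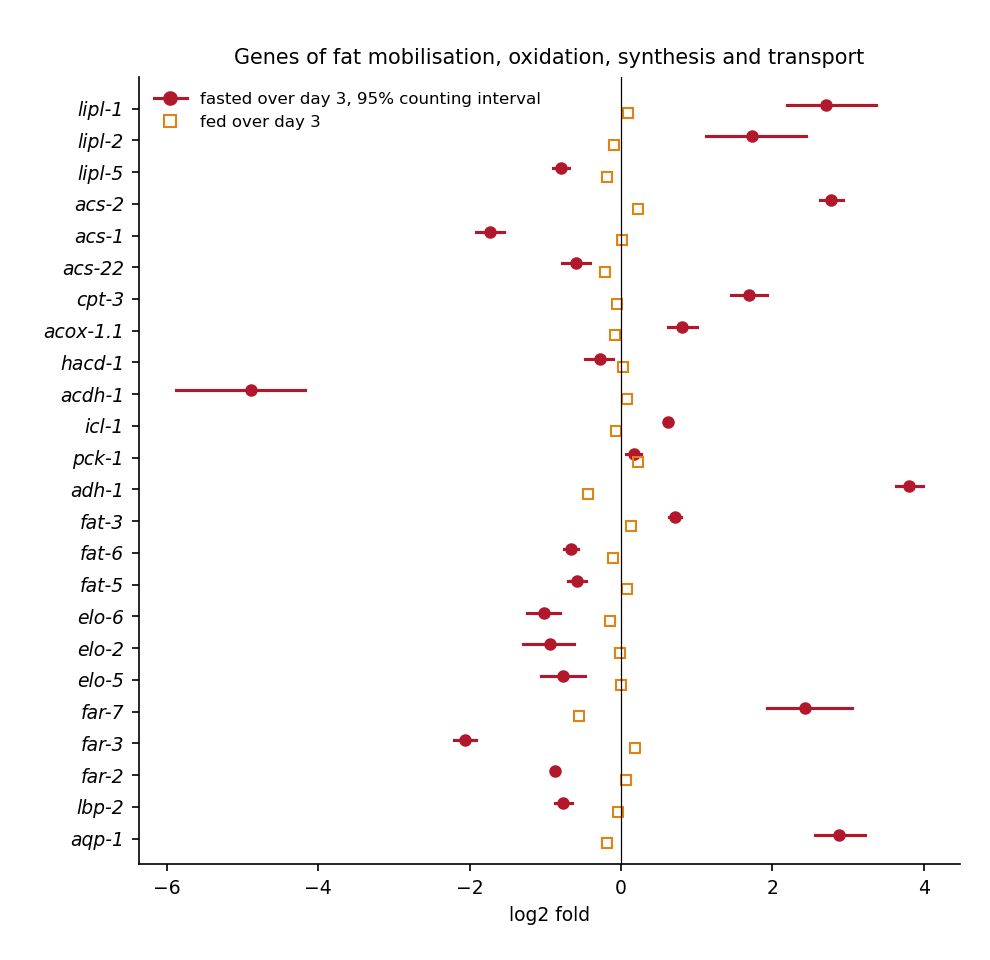
Log2 folds of 24 genes of fat metabolism and transport are plotted on the horizontal axis, as filled circles with 95% counting intervals for fasted over day 3 and open squares for fed over day 3. adh-1 (3.80), aqp-1 (2.88), acs-2 (2.78) and lipl-1 (2.71) lie furthest right and acdh-1 (-4.89) furthest left in fasted over day 3, while the squares stay between -0.55 and 0.22.

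Some genes of amino acid breakdown were lower, while single transporters of amino acids, peptides and sugars differed in either direction. The lysosomal glucosidase-like aagr-2 (R05F9.12) had 437 normalized reads in the fasted and 1312 in the day 3 library, a log2 fold of -1.58. The SWEET-family sugar transporter swt-6 (R10D12.9) had 44.4 normalized reads in the fasted and 242 in the day 3 library, a log2 fold of -2.42. It passed the limit only through the day 3 library and had to differ. It was the 1 lower member of 19 measured transporters, of which 3 were higher, namely nac-1 (0.96), pept-1 (0.94) and nac-3 (0.65), with a median of -0.11. Over all measured genes, 1.74% were higher and 7.41% lower by at least 1.5-fold. With a minimum mean of 200, 8 transporters were measured, of which 0 were higher and 0 lower. Of 18 measured genes of amino acid breakdown, 6 were lower by at least 1.5-fold and 0 higher (median -0.21, and -0.11 with equal upper quartiles). They include enzymes of tryptophan and tyrosine breakdown, namely the kynureninase kynu-1 (-1.94), the homogentisate oxidase hgo-1 (-1.04), the dioxygenase hpd-1 (-0.81) and the tryptophan dioxygenase tdo-2 (-0.78). In the methionine cycle and phosphatidylcholine synthesis, 3 of 19 measured genes were higher and 2 lower. The lower pair were the cystathionine lyase cth-2 (-0.92) and the methyltransferase pmt-2 (-0.88).

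Yolk protein genes were lower in the fasted library, each of the 6 by at least 1.5-fold, with a median of -1.75. In fed over day 3 the median was 0.10 and none was 1.5-fold apart. Yolk proteins are lipoproteins that the intestine secretes for the oocytes. Their genes took 1.56% of the reads outside rRNA in the fasted, 2.95% in the fed and 2.78% in the day 3 library.

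vit-3 (F59D8.1) had 98.8 normalized reads in the fasted and 4743 in the day 3 library, a log2 fold of -5.57 (-5.95 to -5.24), and the authors' deposited table lists an adjusted p of 1.75e-52. vit-4 (F59D8.2) had 344 normalized reads in the fasted and 4914 in the day 3 library, a log2 fold of -3.83. vit-1 (K09F5.2) had 987 normalized reads in the fasted and 5351 in the day 3 library, a log2 fold of -2.44. Several vit genes resemble each other in sequence, vit-3 and vit-4 above all. The split of reads is therefore uncertain, also for vit-2 and vit-5. vit-2 (C42D8.2) had 63957 normalized reads in the fasted and 133327 in the day 3 library, a log2 fold of -1.06. vit-6 (-0.65) and vit-5 (-0.61) were lower by less.

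The yolk receptor of the oocyte did not follow the yolk genes. rme-2 (T11F8.3) had 8677 normalized reads in the fasted and 6865 in the day 3 library, a log2 fold of 0.34 (0.29 to 0.38), against -0.83 in fed over day 3. All 41 listed oocyte genes were measured and none was 1.5-fold apart in fasted over day 3, where the median was 0.25 and 38 were above 0. The highest was cpg-1, an eggshell proteoglycan, with 26138 normalized reads in the fasted and 18350.1 in the day 3 library (log2 fold 0.51). In fed over day 3 the same list had a median of -0.32, and 6 members were at least 1.5-fold lower.

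Germline genes hardly differed. The P granule gene pgl-1 had 11038 normalized reads in the fasted and 10578 in the day 3 library, and the stem cell receptor glp-1 had 6575 in the fasted and 5979 in the day 3 library (log2 fold 0.14). None of 44 meiosis genes (median 0.01), 59 measured genes of DNA replication and mitosis (0.11) or 30 germ granule genes (0.11) was 1.5-fold apart. Of 24 germline stem cell genes 1 was, fog-3, a gene of sperm fate, with 88.8 normalized reads in the fasted and 150.1 in the day 3 library (log2 fold -0.75) and 0.73 in fed over day 3. None of the 31 major sperm protein genes reached the limit of measurement.

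Lysosomal proteases differed one by one. Of 23 measured, 3 were at least 1.5-fold higher and 10 lower, with a median of -0.29, and the median of fed over day 3 was 0.00. The cathepsin B-like cpr-2 (F36D3.9) was 38.9-fold higher, with 309 normalized reads in the fasted and 6.98 in the day 3 library. Its log2 fold was 5.28 (4.56 to 6.55) and rested on 10 reads in the day 3 library. The log2 fold of cpr-2 was 1.02 in fed over day 3. cpr-2 passed the limit only through the fasted library and had to differ. With a minimum mean of 200, 19 proteases were measured, of which 2 were higher and 8 lower. The aspartyl protease asp-1 (Y39B6A.20) had 4793 normalized reads in the fasted and 2346 in the day 3 library (log2 fold 1.03, 0.96 to 1.1), and the carboxypeptidase-like pcp-1 (ZK112.1) 403 in the fasted and 177 in the day 3 library (1.18). Another aspartyl protease, asp-4 (R12H7.2), had 1335 normalized reads in the fasted and 4041 in the day 3 library (log2 fold -1.60), and cpr-9 (-1.64), cpr-3 (-1.61), asp-13 (-1.38) and cpr-6 (-1.05) were lower too. cpr-1 and cpr-5 were lower in fasted over day 3 (-0.73 and -0.84) and higher in fed over day 3 (0.76 and 0.70). The acid ceramidase asah-1 (K11D2.2) had 491 normalized reads in the fasted and 214 in the day 3 library, a log2 fold of 1.19.

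Autophagy genes and most regulators of the fasting response stayed near their day 3 levels. Of 33 measured autophagy genes none was 1.5-fold apart, with a median of 0.11 and 26 above 0. lgg-1, which coats the autophagosome, had 3917 normalized reads in the fasted and 3888 in the day 3 library (log2 fold 0.01), and bec-1 (-0.05), the kinase unc-51 (0.18) and the cargo receptor sqst-1 (0.12) were close. Among 34 transcription factors of fasting and longevity, 0 were higher and 1 lower by 1.5-fold. hlh-30 had 1182 normalized reads in the fasted and 1010.1 in the day 3 library (log2 fold 0.23). nhr-49 had 1963 in the fasted and 1786 in the day 3 library (0.14), and daf-16 had 4190.1 in the fasted and 3477 in the day 3 library (0.27). nhr-80, a nuclear receptor of fat desaturation, was the member that was lower, at 57.3 normalized reads in the fasted and 94.9 in the day 3 library (-0.72). pha-4, also chosen for its role, had a log2 fold of -0.41 (-0.84 to -0.01). mxl-3, likewise chosen, had -0.12 in fasted and 0.62 in fed over day 3. Insulin receptor and TOR signalling had 1 of 29 genes higher and a median of 0.10.

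Genes of defence against microbes were mostly lower, with a few far higher. Of 41 measured antimicrobial and pathogen response genes, out of 76 listed, 21 were at least 1.5-fold lower and 5 higher, and the median was -0.80 (0.03 in fed over day 3). The lysozyme lys-7 (C02A12.4) had 1281 normalized reads in the fasted and 12892 in the day 3 library, a log2 fold of -3.33 (-3.43 to -3.23), and the authors' deposited table lists an adjusted p of 2.3e-34. sysm-1 (T24B8.5), used as a reporter of the p38 immune pathway, had 18.6 normalized reads in the fasted and 782 in the day 3 library, a log2 fold of -5.32 (-6.31 to -4.61). The infection response gene irg-8 (ZK6.11) had 31.5 in the fasted and 494 in the day 3 library (-3.93). dod-19 (-3.57), the saposin-like spp-17 (-3.42) and spp-9 (-3.40) and the lysozymes lys-8 and lys-1 (both -1.77) were lower as well. The lipase-related lips-11 (T13B5.5) is not in the list but was among the lowest of all genes. It had 5 reads in the fasted and 526 in the day 3 library (log2 fold -5.50, -7.31 to -4.45). sysm-1, irg-8, spp-9 and lips-11 had under 50 normalized reads in the fasted library. They passed the limit only through the day 3 library and had to differ.

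The 5 that were higher were not all at day 3 levels in the fed library. thn-1 (F28D1.3), a thaumatin-like gene, was 26.9-fold higher, with 1849 normalized reads in the fasted and 67.7 in the day 3 library, a log2 fold of 4.75 (4.47 to 5.08), and 1.06 in fed over day 3. The invertebrate lysozyme ilys-3 (C45G7.3), with a known role in digesting bacteria, had 1622 normalized reads in the fasted and 234 in the day 3 library, a log2 fold of 2.79 (2.62 to 2.97), and 0.89 in fed over day 3. ilys-2 (C45G7.2) had 418 in the fasted and 115.2 in the day 3 library (1.85), and 0.30 in fed over day 3. It is a relative of ilys-3, so shared reads may have been split. The folds of thn-2 were alike, 0.78 in fasted and 0.82 in fed over day 3, and those of spp-8 were 0.71 and -0.31.

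Sugar-binding proteins showed a mixture as well. Of 11 measured galectins, 6 were lower by at least 1.5-fold and 1 was higher (median -0.74, and 0.04 in fed over day 3). lec-6 (Y55B1AR.1) had 507 normalized reads in the fasted and 2641 in the day 3 library, a log2 fold of -2.38, and lec-9 (-2.20), lec-8 (-2.10) and lec-10 (-1.32) were lower, while lec-2 had a log2 fold of 0.62. Of 36 measured C-type lectins out of 239, 10 were lower and 8 higher with a median of 0.06. With a minimum mean of 200, 16 were measured, of which 5 were lower and 1 higher. Folds of the 36 ran from -2.99 in clec-209 to 2.65 in clec-60, both chosen after their values were seen. Between them lay clec-41 (-2.88) and clec-223 (1.18). clec-60 passed the limit only through the fasted library.

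Collagens of the cuticle were lower as a family. Of 37 measured col genes out of 156, 27 were at least 1.5-fold lower and 1 higher, with a median of -2.15. In fed over day 3, 9 of 48 measured were lower and 1 higher, with a median of -0.31. The family took 0.0853% of reads outside rRNA in the fasted, 0.350% in the fed and 0.445% in the day 3 library. With the minimum mean set to 10, which lets in weakly covered members, the median of the family was -0.77.

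col-101 (K02D7.3) had 362 normalized reads in the fasted and 6518 in the day 3 library, a log2 fold of -4.16 (-4.35 to -3.99), and the authors' deposited table lists an adjusted p of 1.25e-39. col-143 (T15B7.3) had 256 in the fasted and 4428 in the day 3 library (-4.10), and col-95 (Y41C4A.16) had 459.8 in the fasted and 5808 in the day 3 library (-3.66). col-80 (C09G5.5) had the largest fold of the family, with 34.4 normalized reads in the fasted and 1522 in the day 3 library. Its log2 fold was -5.43 (-6.11 to -4.89), and -0.64 in fed over day 3. It passed the limit only through the day 3 library and had to differ. Each of the 21 members whose mean reached 200 normalized reads was 1.5-fold lower or more, from -5.43 to -0.80, against 6 of the 16 with a smaller mean. Many col genes resemble each other in sequence, so reads may be split between them. Transthyretin-related genes, which encode small secreted proteins, had 15 of 28 measured members lower and 0 higher (median -0.61, and -0.07 in fed over day 3), such as ttr-26 (-1.55) and ttr-6 (-1.26).

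**Figure D3:**
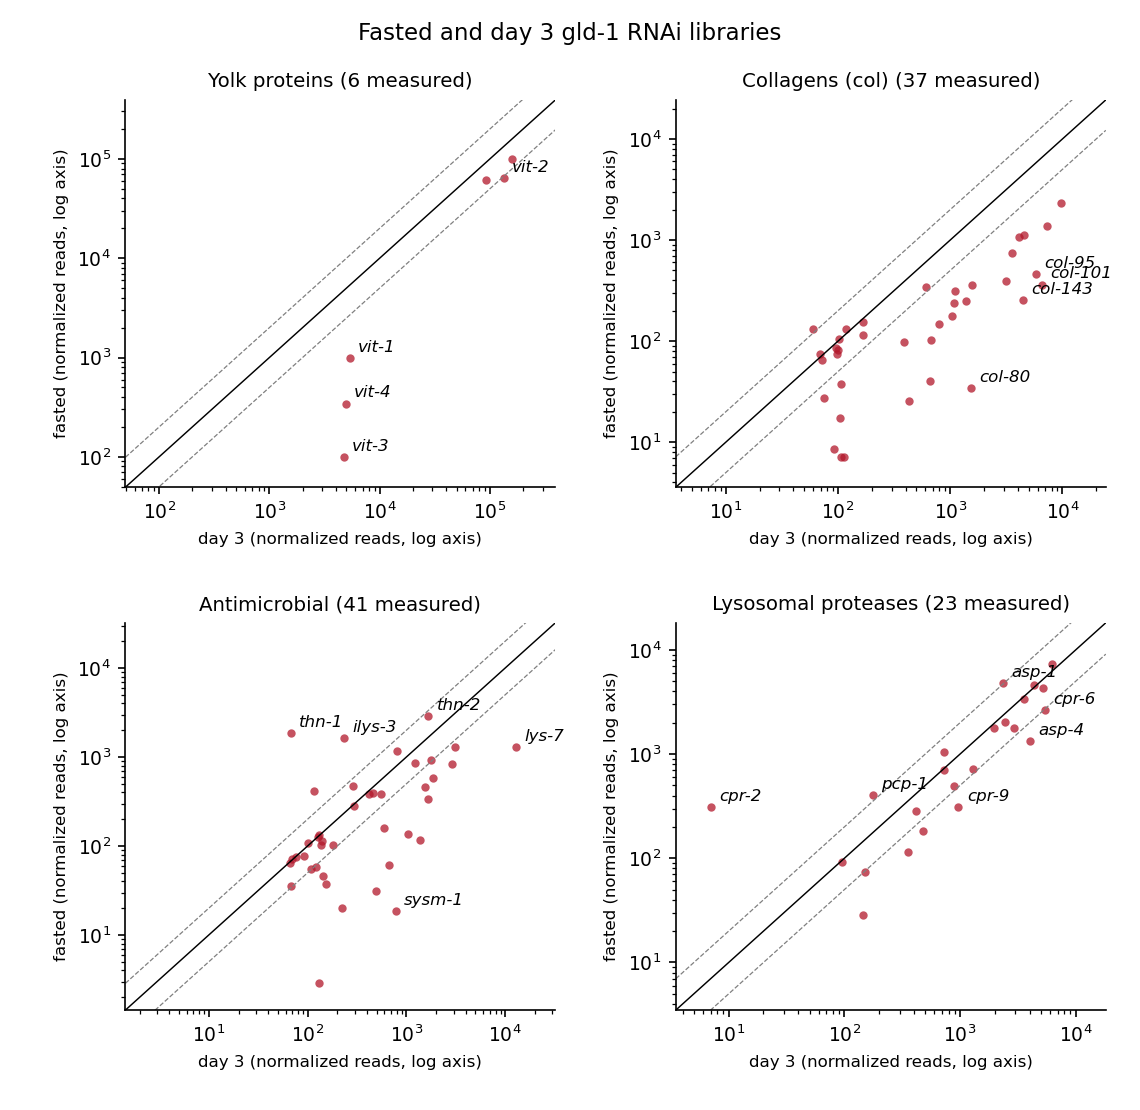
Normalized reads in the fasted library (vertical, log axis) are plotted against those in the day 3 library (horizontal, log axis) for measured yolk protein, collagen, antimicrobial and lysosomal protease genes, with 1 point per gene. The solid line marks equal values and the dashed lines 2-fold. The 21 collagens whose mean reached 200 lie below the solid line, while thn-1, ilys-3 and cpr-2 lie far above it.

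Detoxification families were lower in part. Of 29 measured cytochrome P450 genes, 12 were lower by at least 1.5-fold and 4 were higher. Over all measured genes, 7.41% were lower and 1.74% higher. The median of the P450 genes was -0.23, and -0.14 with equal upper quartiles. With a minimum mean of 200, 9 were measured, with 2 lower, 0 higher and a median of -0.09. cyp-35A2 (C03G6.15), a gene induced by xenobiotics, had 54.4 normalized reads in the fasted and 399 in the day 3 library, a log2 fold of -2.85, beside cyp-35C1 (-3.31) and cyp-14A3 (-3.28). Its relative cyp-35B1 had a log2 fold of 0.67. Of 24 measured UDP-glucuronosyltransferases, which add sugar to foreign compounds, 9 were lower and 2 higher. Lower members include ugt-22 (-2.73), ugt-62 (-2.43) and ugt-66 (-2.37). The lowest, ugt-44 (-4.02), was chosen after its values were seen and rested on 6 reads in the fasted library. With a minimum mean of 200, 8 were measured, of which 5 were lower and 1 higher. cyp-35C1, cyp-14A3, ugt-66 and ugt-44 had under 50 normalized reads in the fasted library. They passed the limit only through the day 3 library and had to differ. Of 15 glutathione S-transferases, 7 were lower and 0 higher. Their median was -0.36, and it changed sign to 0.18 with a minimum mean of 200, where under 5 members remained. Of 32 ABC transporters 5 were lower and 0 higher, with pgp-3 the lowest (-1.88). With a minimum mean of 200, 2 of 19 were lower and 0 higher, nearer the 7.41% lower over all measured genes.

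Some inducible heat shock genes were above day 3 in both day 4 libraries. Of 29 measured cytosolic heat shock genes, 5 were at least 1.5-fold higher and 2 lower in fasted over day 3, and 5 were higher in fed over day 3. With a minimum mean of 200, 22 were measured, of which 0 were higher and 1 lower in fasted over day 3. hsp-16.2 and hsp-16.41 had under 50 normalized reads in the day 3 library and passed the limit only through the fasted one. F44E5.4, an inducible Hsp70, had 246 normalized reads in the fasted and 69.1 in the day 3 library, a log2 fold of 1.82, and 2.23 in fed over day 3. hsp-16.11 had folds of 1.30 and 1.83 in fasted and fed over day 3, and hsp-70 of 0.89 and 1.87. Copies of hsp-16 are nearly alike in sequence and their reads may be split. The small heat shock gene hsp-17 (-0.87) and hsp-43 (-0.74) were lower in fasted over day 3, against 0.40 and 0.34 in fed over day 3.

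Housekeeping lists hardly differed, apart from genes of the mitochondrial genome. Of 8 measured protein genes of that genome, out of 12, each was at least 1.5-fold lower in the fasted library, from -1.37 to -0.66 with a median of -0.74, against -0.04 in fed over day 3. With equal upper quartiles 5 of the 8 stayed at or beyond 1.5-fold, with a median of -0.64. COX3, a subunit of cytochrome c oxidase, had 6139.8 normalized reads in the fasted and 10409.6 in the day 3 library, a log2 fold of -0.76, and the authors' deposited table lists an adjusted p of 0.138. ND1, a subunit of complex I, had 2140.2 in the fasted and 3381 in the day 3 library (-0.66). The 38 nuclear genes of the respiratory chain had a median of 0.00 and none was 1.5-fold apart. The same held for 73 measured ribosomal proteins (median 0.02, and 0.23 in fed over day 3), 33 proteasome subunits (0.08), 20 aminoacyl-tRNA synthetases (0.10), 40 nucleolar genes (0.05) and 25 histones (-0.13). In all, 18 of 68 lists with at least 5 measured members had none 1.5-fold apart, and the median of a list was below -0.5 in 7 and above 0.5 in 0.

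**Figure D4:**
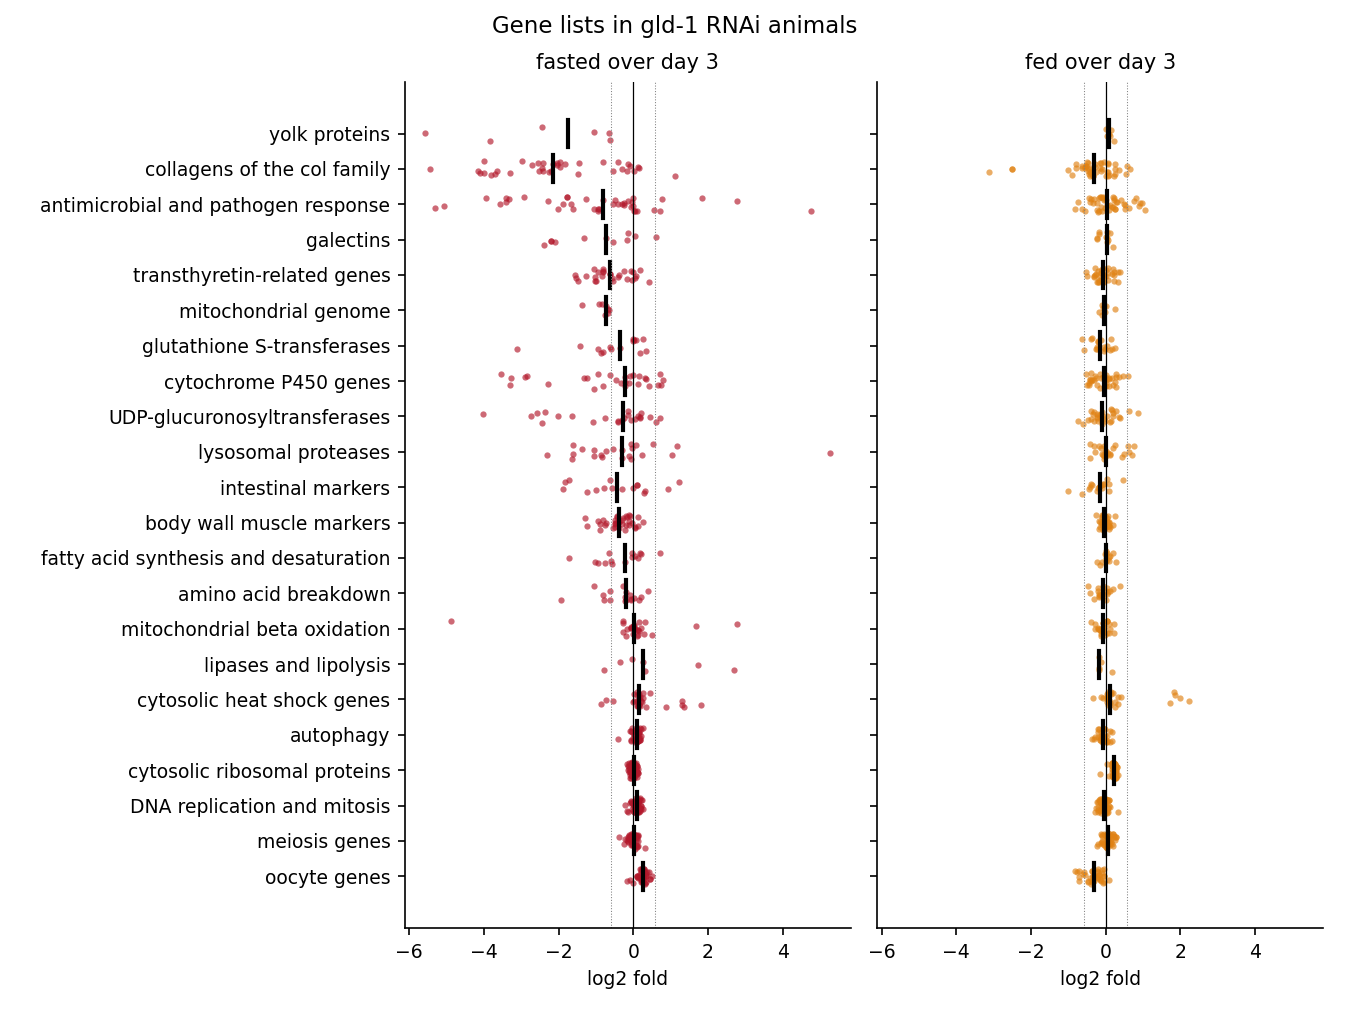
Log2 folds of single genes (points) and list medians (bars) are plotted for 22 gene lists, with fasted over day 3 on the left and fed over day 3 on the right. Dotted lines mark 1.5-fold. Yolk proteins, col genes and antimicrobial genes spread to the left in fasted over day 3, while autophagy, ribosomal, meiosis and replication genes keep close to 0.

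Markers of the tissues did not all keep their share, which bears on the genes above, many of which are made in the intestine or skin. In whole animals fewer cells of a type and less RNA per cell cannot be told apart. Of 16 measured intestinal markers, 7 were lower by at least 1.5-fold and 2 were higher. The median of -0.44 moved to -0.01 with a minimum mean of 200 and to -0.58 with one of 10. The gut esterase ges-1 (R12A1.4) had 61.6 normalized reads in the fasted and 221 in the day 3 library (log2 fold -1.83), and the microvillus actin act-5 (T25C8.2) had 262 in the fasted and 866 in the day 3 library (-1.72). The gut regulator elt-2, under the limit of measurement and chosen after its values were seen, had 28.7 in the fasted and 55.8 in the day 3 library (-0.94). The summed level of elt-2, ges-1, act-5 and ifb-2 was 483 in the fasted, 1363 in the fed and 1463 in the day 3 library, and none of the 4 was at 0. Other intestinal markers were near or above their day 3 level, such as the proton pump subunit vha-6 (0.32), the metallothionein mtl-1 (0.29) and the peptide transporter pept-1 (0.94). The part of gut RNA content in the lower yolk, defence and detoxification genes was not tested.

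Of 36 measured markers of body wall muscle, 8 were lower and 0 higher (median -0.38, and -0.04 in fed over day 3). The myosin unc-54 had 4679 normalized reads in the fasted and 7682 in the day 3 library (log2 fold -0.72), and tnt-2 (-1.30) and unc-27 (-1.24), both of the troponin complex, were the lowest. In the pharynx, 1 of 10 measured markers was higher (4 with equal upper quartiles) and 1 lower. The pharyngeal myosin myo-2 had 662 in the fasted and 421 in the day 3 library (0.65), and myo-1 had a log2 fold of 0.53. pha-4 was below 0 (-0.41), as was ceh-22 (-0.42), which had only 2 reads in the fasted and 6 in the day 3 library. Of 36 neuronal markers 1 was lower (median -0.08), and unc-119 had 192 in the fasted and 226 in the day 3 library (-0.24). Of 10 hypodermal markers, which share the tissue of the col genes, 1 was lower, with a log2 fold of -3.19. Their median was 0.09, with 6 above and 4 below 0. The hypodermal regulator elt-3 had 74.5 in the fasted and 66.3 in the day 3 library (0.17). rol-6, under the limit of measurement, had 4 reads in the fasted and 20 in the day 3 library (-1.15). Of elt-3, dpy-7, bli-1 and rol-6, 2 were above and 2 below 0.

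Over all 5 libraries, several of these genes were also far from day 3 in young adults, which were fed. Ribosomal RNA took 3.53% of the reads of the young adult library, against 25.7% in the day 3 and 28.1% in the control library. The young adult library thus differs in make-up, and the part of this in its levels was not tested. On the common scale acs-2 stood at 2647 in the fasted, 450.1 in the fed and 379.6 in the day 3 gld-1 RNAi library, and at 289 in the control and 4342 in the young adult library. acdh-1 stood at 20.8 in the fasted, 687 in the fed and 639 in the day 3 gld-1 RNAi library, and at 2688 in the control and 25995 in the young adult library. acs-2 was thus highest in the young adults and next in the fasted library, whereas acdh-1 was highest in the young adults and lowest in the fasted library. thn-1, ilys-3 and cpr-2 were highest in the fasted library of the 5.

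**Figure D5:**
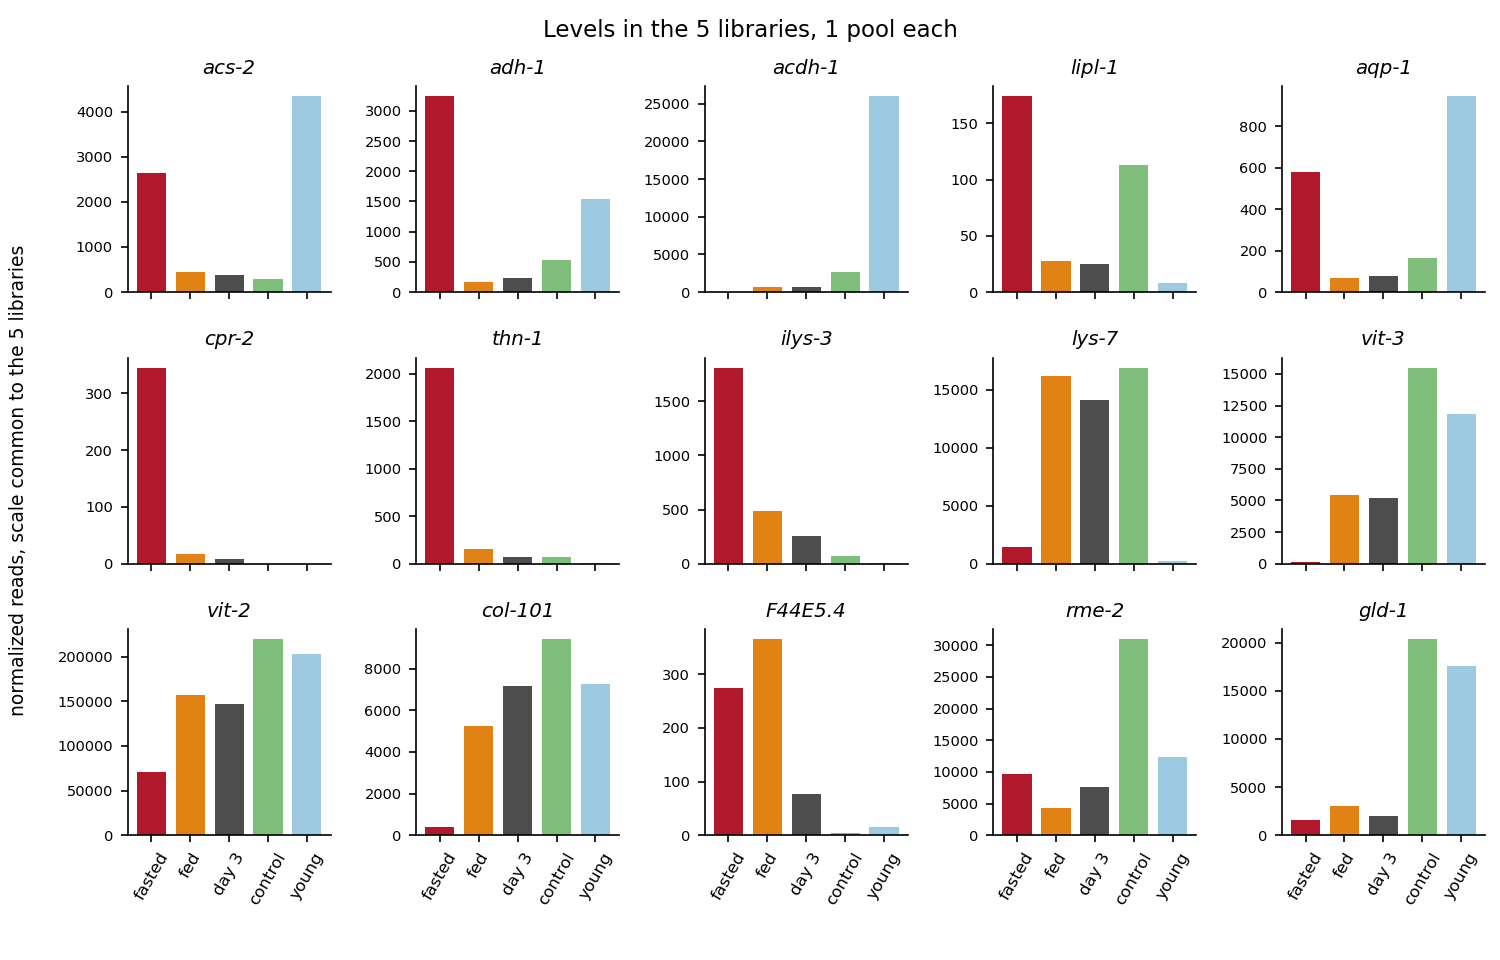
Normalized reads on a scale common to the 5 libraries (vertical axes, each from 0) are shown as bars for 15 genes, with fasted, fed and day 3 gld-1 RNAi libraries followed by the control and young adult libraries, 1 pool each. acs-2 stands at 2647 in the fasted and 379.6 in the day 3 library, and vit-3 at 110.3 in the fasted and 5211 in the day 3 library.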

How the data were processed

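RNA was sequenced from 5 pools of whole animals, 1 per group. TopHat, HTSeq and DESeq are the tools listed in the submitters' processing notes. Versions, genome build, strandedness and any poly(A) step are not given in the sources used here. No coordinates are therefore printed, and overlapping or antisense genes cannot be told apart. The authors deposited 5 tables, each for a pair of libraries, with normalized signal per gene in each library, a fold ratio, its log2 and p-values, per the file headers. The deposited signal behaves as gene counts divided by 1 size factor per library and table, named baseMean per the file headers. Columns were tied to libraries through the order in which a table names its pair. Low values step by what 1 read is worth, and dividing by that step gave whole reads (within 0.1) for 100% of 192823 non-zero values. Where tables share a library, the reads were the same (0 genes differed).

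With 1 library per group no residual degrees of freedom exist, so no count model could be fitted and no p-value of a new test is given. Adjusted p-values come from the authors' deposited table. Log2 folds used a pseudocount of 1, which understates those of low genes, and a minimum mean of 50. Intervals are exact (Clopper-Pearson, 95%). Levels over 5 libraries are recovered reads divided by median-of-ratios size factors. Of the identifiers, 44936 of 45461 matched a name in RefSeq or Ensembl release 115, and the 525 others held at most 0.368% of reads in any library.

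The comparison, the 71 gene lists, the choice of named genes and the alternative settings were made with earlier results of these data known, so no list is independent support. Named were gld-1, 28 genes chosen for their role, the 12 named genes at each end of the fold scale whose mean reached 100, and up to 4 members at each end of any list with 5 or more measured genes. Any other gene is an example from its list, chosen after its values were seen. The fold and interval code was checked on simulated counts. Python 3.11.15, numpy 2.4.6, pandas 2.3.3, scipy 1.17.1 and matplotlib 3.10.9 were used.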

Additional observations from a re-analysis of the deposited data

How the results depend on the processing

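Genes at least 2-fold higher and lower in the fasted library numbered 52 and 314. They numbered 49 and 324 with equal totals outside rRNA, 63 and 268 with equal upper quartiles, 43 and 280 with a pseudocount of 10, and 53 and 318 with 0.1. A minimum mean of 10 gave 144 and 764, one of 200 gave 17 and 144, and 29 and 194 had a counting interval wholly beyond 2-fold. The authors' deposited table calls 17 higher and 137 lower at an adjusted p under 0.05, against 18 and 158 at 0.1. Equal upper quartiles put the median of all genes at 0.11, against 0.01 as reported. Of the 138 named genes at least 1.5-fold apart, 0 changed direction under the other scalings or a pseudocount of 10. With equal upper quartiles bec-1 moved to 0.05, against -0.05 as reported, and with equal totals lgg-1 moved to -0.01, against 0.01. Of 68 list medians 22 changed sign, none larger in size than 0.36. Of these, glutathione S-transferases stood at 0.18 with a minimum mean of 200, against -0.36 as reported. Under 5 members of that list remained at this setting, and the cause of the change was not tested. Ribosomal proteins, meiosis genes and the respiratory chain crossed 0 with equal totals. That setting rescales each library by 1 factor and put the median of all genes at -0.01. The medians of yolk, antimicrobial, collagen, galectin, oocyte and autophagy genes kept their sign. No paired analysis was possible because each group is 1 library, and leaving out a replicate was not possible for the same reason. The fasted library had the fewest reads of the 5, which widens the intervals of genes that are low in it.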

Other observations

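The genes below were chosen after their values were seen, apart from cysl-2 and nhr-57, which the rule for named genes took in. Several genes linked to the hypoxia factor HIF-1 or to hydrogen sulfide were looked up singly, and they are no full list. cysl-2 (K10H10.2), a cysteine synthase family gene that acts on cyanide and sulfide, had 801 normalized reads in the fasted and 263 in the day 3 library, a log2 fold of 1.6 (1.41 to 1.80 from counting error), and 0.39 in fed over day 3. rhy-1, a regulator of HIF-1, had 169 normalized reads in the fasted and 76.8 in the day 3 library (log2 fold 1.13), and 0.74 in fed over day 3. The nuclear receptor nhr-57 (0.70), the sulfide quinone oxidoreductase sqrd-1 (0.66) and the HIF-1 hydroxylase egl-9 (0.48) had smaller folds. hif-1 itself had 1656 normalized reads in the fasted and 1769 in the day 3 library (log2 fold -0.10).

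Heme-responsive genes of the hrg family were lower in part. Worms cannot make heme and take it from their food. Of 8 measured hrg genes 5 were at least 1.5-fold lower and 0 higher, with a median of -1.29, and -0.23 in fed over day 3. hrg-11.2 had 193 normalized reads in the fasted and 1365 in the day 3 library, a log2 fold of -2.81, and the heme transporter hrg-1 had 152 in the fasted and 371 in the day 3 library (-1.28). Of 9 measured nspg genes, a nematode-specific peptide family, 7 were lower and 0 higher, with a median of -1.86. The folate transporter family gene folt-2 had 0 reads in the fasted, 204 in the fed and 227 in the day 3 library. Against a floor of 3 reads it was at least 36.9-fold lower in the fasted than in the day 3 library. H39E23.3 likewise had 0 reads in the fasted, 76 in the fed and 211 in the day 3 library, at least 34.3-fold lower in the fasted than in the day 3 library.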
